A study of Mus musculus with 16 samples.

Results

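Regulatory T cells made in culture with TGFβ, retinoic acid and vitamin C were compared with regulatory T cells taken directly from the mouse, by the amount of 5-hydroxymethylcytosine (5hmC) across the genome. The comparison used 4 of the 16 deposited libraries, the pull-downs of 2 RA+VitC iTreg and 2 Treg samples, chosen by their labels. It took in all 177720 regions of the authors' union of 5hmC peaks, of which 135412 held enough reads to be tested. Every sample started from spleen and lymph node cells of 5 to 6 week old C57BL/6 animals with the Foxp3-eGFP reporter, in which green fluorescence marks cells expressing Foxp3.

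The Treg group was sorted as CD4+eGFP+. The RA+VitC iTreg group was grown from naive CD4+ cells with TGFβ, RA and VitC present together, so that no result here belongs to RA or to VitC alone. The labels state no sort of the iTreg on eGFP after culture, which limits them as a pure Foxp3+ population. TGFβ iTreg, cultured without RA and VitC, and naive cells (CD4+eGFP-CD25-CD62LhiCD44lo) were used as reference levels. Whether the 2 libraries of a group stem from different animals or cultures is not stated, and p-values here rest on the variation between libraries, which may be technical. In bulk DNA, more cells with the mark and more of the mark per cell cannot be told apart.

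TET enzymes oxidise 5-methylcytosine to 5hmC, an intermediate of active DNA demethylation that accumulates over the bodies and enhancers of active genes, and vitamin C supports TET activity by keeping their iron reduced. Regulatory T cells hold other T cells in check and depend on the transcription factor Foxp3, on IL-2 received through the high-affinity receptor chain Il2ra, and on a set of demethylated loci that keeps Foxp3 expression stable. Because 5hmC is both made from 5-methylcytosine and removed by further oxidation, its level reports neither transcription nor methylation directly.

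The RA+VitC iTreg pull-downs held 3996442 and 3828487 reads in the regions and the Treg pull-downs 7664194 and 8347328, against 1028822 to 1563165 in the matching inputs. The TGFβ iTreg pull-downs were the shallowest, with 1648804 and 2114056 reads, and the naive ones held 7773777 and 9731897. In RA+VitC iTreg the 10% of regions with the most reads took 60.4% to 61.2% of the reads, against 54.8% to 55.4% in Treg. Levels are given as CPM, read counts scaled to a common library size with TMM factors, which align the libraries on the regions most alike between them. The replicates of each group differed by more than counting noise in the pull-downs (chi-square per degree of freedom 1.19 and 1.2 over regions of at least 20 reads), and the inputs by no more than it (0.996 and 1.01). Each library was counted as 1 sample, as labelled. Reads of T cell receptor complex genes were high in both groups, with a summed level of 8504 to 8641 CPM over 19 genes in RA+VitC iTreg and 7699 to 7737 CPM in Treg.

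RA+VitC iTreg carried more 5hmC than Treg at 24114 regions (17.8% of the tested regions) and less at 15459 (11.4%), by edgeR's quasi-likelihood test at a Benjamini-Hochberg adjusted p under 0.05. The gains were also larger: 5802 regions were at least 4-fold higher and 1970 at least 4-fold lower, and 421 were at least 16-fold higher against 92 at least 16-fold lower. These fitted folds include regions with few or no reads in a group, where the fold has no firm value. The same test on the inputs, DNA that was not pulled down, called 1 region higher and 1 lower of 44917 (0.00223% each and 0.00445% together), and 5.84% of the input regions had an unadjusted p under 0.05.

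The balance of gains and losses depended on the scaling and on the test used. With library size in place of TMM, 18118 regions were higher and 28306 lower, so that 39% of the called regions were higher rather than 60.9%, and the median over all regions moved from -0.05 to -0.30 on the log2 scale. RLE factors, another scaling, gave 24137 higher and 15493 lower, near the counts with TMM. DESeq2, a different test, called 15276 higher and 4576 lower. No spiked standard that could set an absolute scale was used here, so a difference in total 5hmC cannot be told apart from the scaling. Directions below are relative to the median region or gene unless the other scaling is named.

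The share of called regions varied with abundance and width. Among the 10% of tested regions with the fewest reads 22.4% were higher and 3.14% lower, and among the 10% with the most reads 39.4% were higher and 20.1% lower. By width, regions of at most 300 bp were higher in 21.1% and lower in 2.77%, and the 2454 tested regions over 10000 bp in 43.7% and 22%. Regions with few reads pass the filter through the group where they are high, so their excess of gains is partly set by the filter and is not read as a result. A separate fit to the 25130 regions with a mean of at least 50 reads called 7844 higher and 7671 lower, and 4962 of those lower regions were also lower in the fit to all tested regions. By gene part, 5′ UTR regions were higher in 21.1% and lower in 14.4%, promoter regions in 15.6% and 9.04%, intronic regions in 16.1% and 11.1%, and intergenic regions in 20.5% and 12%. On the X chromosome 20% were higher and 6.77% lower. Parts, widths and abundances overlap in the same regions and were not matched.

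**Figure D1:**
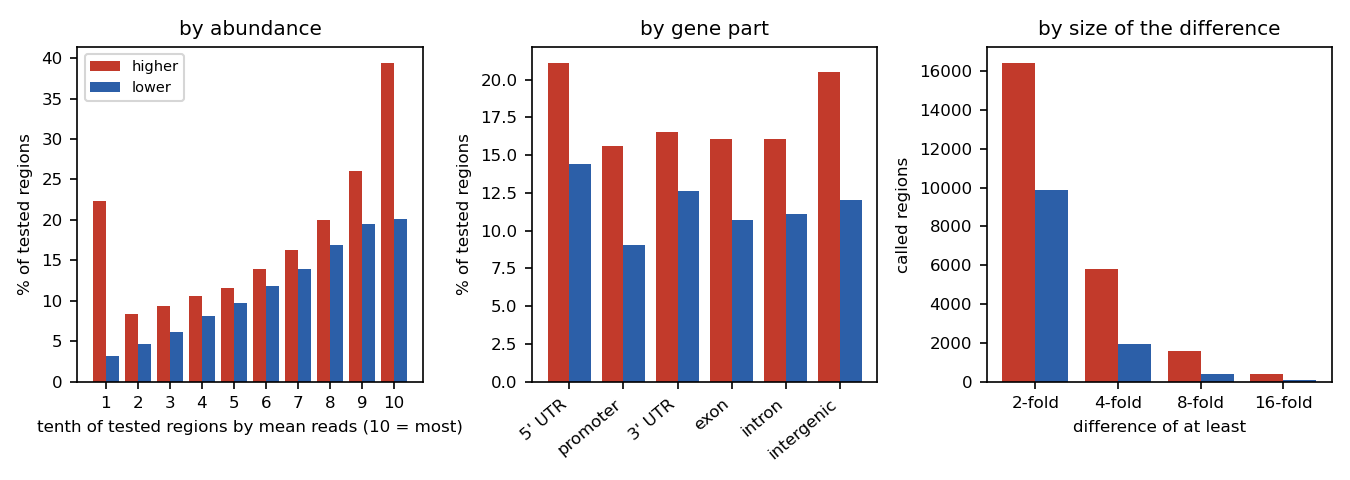
Tested 5hmC regions called higher (red) or lower (blue) in RA+VitC iTreg than in Treg, as a percent of the tested regions by decile of mean reads (left) and by gene part (middle), and as counts of called regions by the least size of the difference (right). With TMM scaling higher calls outnumber lower calls in each class shown, and the highest decile of reads holds the largest share, 39.4% higher and 20.1% lower.

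Regions higher in RA+VitC iTreg had a median level of 9.48 CPM there and 3.65 CPM in Treg. In the reference groups their medians were 7.36 CPM in TGFβ iTreg and 3.38 CPM in naive cells, so both cultured groups stood above both groups sorted from the mouse. Regions lower in RA+VitC iTreg had medians of 2.81 CPM in RA+VitC iTreg, 6.43 CPM in Treg, 4.08 CPM in TGFβ iTreg and 5.44 CPM in naive cells. These medians describe called regions and carry no test, and the call itself sets the order of RA+VitC iTreg and Treg in them. TGFβ iTreg against naive cells shares no library with this comparison but shares its regions, scaling and estimate of the spread. The titles also give both iTreg groups the same pair of replicate names and number Treg and naive libraries alike, so shared culture or sorting batches cannot be told apart from the groups. It had 17693 regions higher (13.1%) and 11213 lower (8.28%). Of the 24114 regions higher in RA+VitC iTreg than in Treg, 11497 also gained in TGFβ iTreg over naive cells, which is 47.7% of the first list and 65.0% of the second. For lower regions the shared number was 3953, or 25.6% and 35.3%. In opposite directions 603 and 527 regions were called.

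Summed over the regions that the authors' table assigns to each gene, 3982 of 14951 genes were higher (26.6%) and 3454 lower (23.1%), together 49.7%, with a median log2 difference of -0.02. With library size in place of TMM the counts were 2953 and 5339, and the median was -0.18. With inputs in the fit 2146 genes were higher and 1635 lower, of 13626 tested. Genes at least 4-fold higher numbered 253 and genes at least 4-fold lower 40. Many genes held both kinds of region: of 7558 genes with at least 5 tested regions, 2724 (36%) had at least 1 region higher and 1 lower, and 1099 of those were not called as sums. A gene's sum can therefore hide opposite changes along the gene, and the loci described below are given by region as well.

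**Figure D2:**
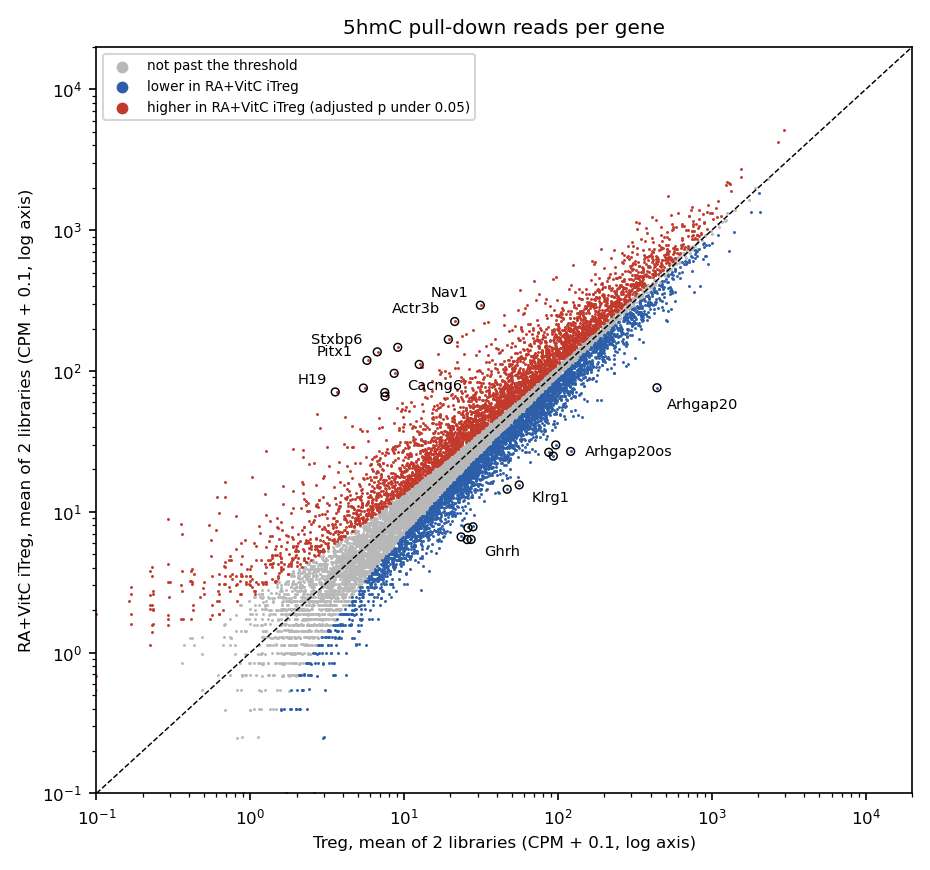
Summed 5hmC pull-down level of each tested gene in Treg (horizontal) and RA+VitC iTreg (vertical), as the mean CPM of 2 libraries plus 0.1 on log axes, with called genes in colour and the 24 genes named by rule circled. The circled genes lie far from the diagonal, with H19, Pitx1 and Stxbp6 above it and Arhgap20 below.

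The largest gains, among genes with at least 100 reads on average and no overlap between the groups, were led by Pitx1, H19 and Stxbp6, each about 20-fold higher than in Treg. Pitx1, a homeobox factor of limb and pituitary development, stood at 128 and 110 CPM in RA+VitC iTreg and at 5.79 and 5.68 CPM in Treg. That is a 20.7-fold difference (log2 4.37, SE 0.13, edgeR adjusted p = 4.4e-62), and all 5 of its tested regions were higher. Pitx1 had no tested value over regions on the transcript alone. An intergenic region at -42702 bp from the nearest start had 66.5 and 54.7 CPM in RA+VitC iTreg. Summed Pitx1 levels in TGFβ iTreg (138 and 146 CPM) reached those of RA+VitC iTreg, and those of naive cells (3.46 and 5.01 CPM) lay just below Treg.

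H19, an imprinted long non-coding RNA gene, had 67.9 and 74 CPM in RA+VitC iTreg and 4.17 and 2.96 CPM in Treg. The difference was 19.9-fold (log2 4.31, SE 0.17, edgeR adjusted p = 1.5e-49). Unlike Pitx1, H19 was lower in TGFβ iTreg, at 16.1 and 26 CPM, than in either RA+VitC library. Stxbp6, which codes for a syntaxin-binding protein, had 193 and 80.3 CPM against 6.6 and 6.79 CPM, with the RA+VitC iTreg libraries wide apart and both far above Treg. All 17 of its tested regions were higher. Pou5f1-rs4 was 16.1-fold higher. It is a sequence related to Pou5f1, so reads on its transcript could belong to a near-identical copy, which was not tested. An intergenic region at -6144 bp from the nearest start had 138 and 116 CPM in RA+VitC iTreg, beside Pou5f1-rs4 sums of 160 and 135 CPM. Over regions on the transcript alone the log2 difference of Pou5f1-rs4 was 2.16 rather than 4.01.

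Tmem178b (82.4 and 68.9 against 6.06 and 4.81 CPM), the calcium channel subunit gene Cacng6 (93.8 and 98.6 against 9.83 and 7.4 CPM) and the actin-related gene Actr3b (221 and 229 against 23.2 and 19.5 CPM) followed. Every tested region of these 3 genes was higher, 14, 6 and 18 in turn. Over regions on the transcript alone Tmem178b had a log2 difference of 2.12 rather than 3.80, and Cacng6 and Rph3a had no tested value. Tead1, a DNA-binding partner of the Hippo pathway coactivators, had 105 and 117 CPM against 12.1 and 13 CPM (8.85-fold), with 20 of 21 tested regions higher. Nav1, Rph3a, Pilra and Syndig1l completed the rule's list, with 8.62-fold to 9.4-fold gains and no overlap between the groups. In TGFβ iTreg these 4 genes stood between 50.7 and 226 CPM, above both naive libraries in each case.

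Losses were smaller, and among regions with at least 100 reads on average 6 of the 8 largest lay at Arhgap20 or Arhgap20os. Arhgap20, which codes for a GTPase-activating protein, had 67.6 and 84.5 CPM in RA+VitC iTreg and 442 and 438 CPM in Treg. The difference was 5.79-fold (log2 -2.53, SE 0.07, edgeR adjusted p = 4.6e-65), and all 11 tested regions were lower. Naive cells (125 and 120 CPM) and TGFβ iTreg (168 and 137 CPM) lay between, so Treg stood apart from the other 3 groups. The neighbouring Arhgap20os had 21.3 and 32.4 CPM against 120 and 121 CPM, with all 10 tested regions lower. The pull-down does not keep the strand, so reads over the antisense gene and over Arhgap20 cannot be told apart.

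Klrg1, an inhibitory receptor of terminally differentiated effector and regulatory T cells, had 15.1 and 15.9 CPM against 57.1 and 54.9 CPM (log2 -1.85, SE 0.14), and all 6 tested regions were lower. Its RA+VitC iTreg libraries overlapped those of naive cells (13.6 and 15.4 CPM). Itgb8, the integrin chain with which regulatory T cells activate latent TGFβ, had 30.9 and 28.8 CPM against 98.5 and 94.9 CPM (log2 -1.69, SE 0.10), with 16 of 26 tested regions lower. Pdgfra, a growth factor receptor gene, had 24.8 and 28.2 CPM against 90.6 and 83.7 CPM.

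The other genes of the rule's lower list were the growth hormone-releasing hormone gene Ghrh, C1qtnf2 and C1ql3, which code for secreted C1q-like proteins, G6pc, Srrm3, the secretogranin gene Scg3 and Stk31, with log2 differences from -2.10 to -1.69. Stk31, a testis kinase gene, changed direction when only regions overlapping its transcript were summed (log2 -1.91 over all assigned regions and 1.87 over overlapping ones). In G6pc, the glucose-6-phosphatase gene, naive cells had the highest level, 29 and 27.4 CPM, above Treg at 24.1 and 22.8 CPM. G6pc had no tested value over overlapping regions alone. In Ghrh, C1qtnf2 and C1ql3 both naive libraries lay below both Treg libraries, and both TGFβ iTreg libraries lay above both RA+VitC iTreg libraries.

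**Figure D3:**
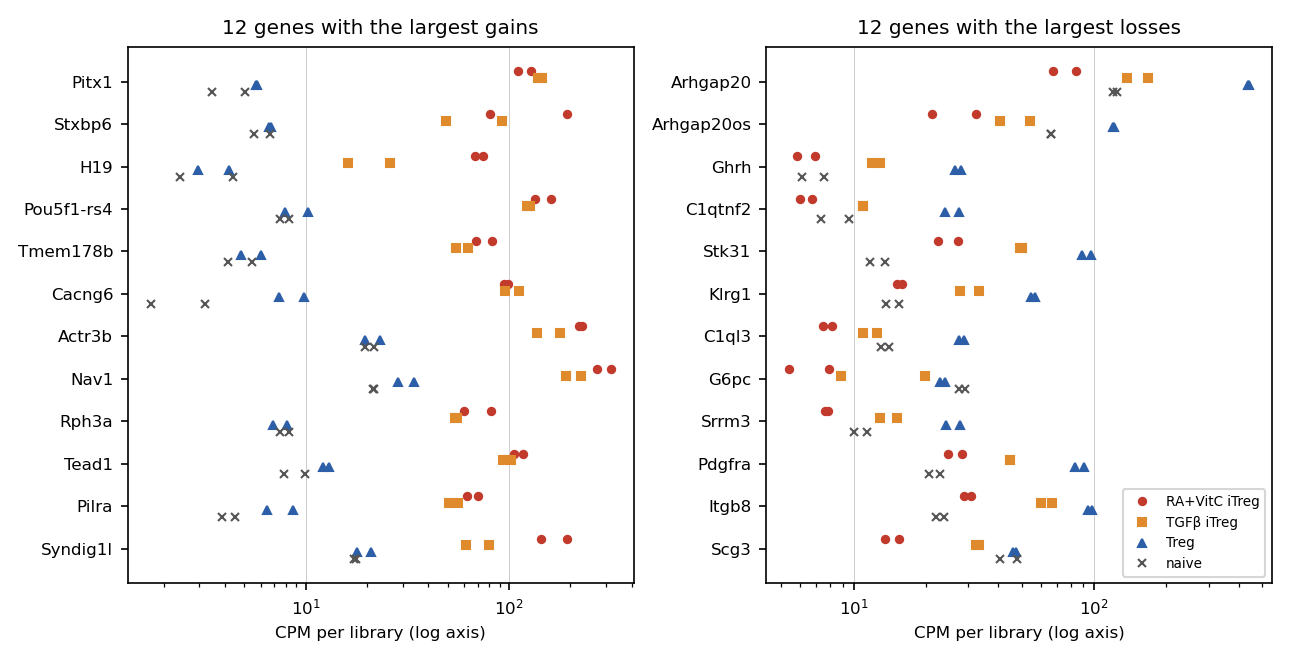
Level of each gene named by rule in every pull-down library (CPM, log axis), with RA+VitC iTreg as red circles, TGFβ iTreg as orange squares, Treg as blue triangles and naive cells as grey crosses. For the gains (left) both iTreg groups lie above both Treg and naive libraries at all 12 genes, and for the losses (right) Treg is the highest group except at G6pc, where naive cells are higher, and at Scg3, where they overlap.

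At Foxp3 itself RA+VitC iTreg had more 5hmC than Treg at the 5′ end, and the difference at the 3′ end did not pass the test. The region over the gene's start and first exons (chrX:7156699-7163183, mm9; promoter and 5′ UTR, assigned in the table to the overlapping long non-coding gene Flicr) had 36.6 and 37.7 CPM in RA+VitC iTreg and 5.24 and 7.32 CPM in Treg. It was higher by log2 2.55 (SE 0.17, edgeR adjusted p = 1.3e-47). Treg had the lowest level of all groups there, below naive cells at 11.4 and 12.9 CPM and TGFβ iTreg at 96.5 and 130 CPM. The region just upstream (chrX:7152321-7155923) had 39.8 and 30.8 CPM against 8.31 and 7.8 CPM (log2 2.13, SE 0.16).

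Over the 3′ part of Foxp3 (chrX:7163959-7172345) RA+VitC iTreg had 45.1 and 42.7 CPM and Treg 34.8 and 39.3 CPM. The groups did not overlap, but the difference of log2 0.24 (SE 0.12) did not pass the test (edgeR adjusted p = 0.11). Both stood above TGFβ iTreg (14.3 and 20.5 CPM) and naive cells (14.4 and 17 CPM). The 250 bases upstream of the Foxp3 start are shown, from a later build than that of the regions, because the higher 5′ region covers the start. They hold 6 CG dinucleotides, the sequence in which mouse 5hmC mostly lies, and these are in capitals (RefSeq, GRCm38.p6, chrX:7579426-7579675, plus strand).
Foxp3: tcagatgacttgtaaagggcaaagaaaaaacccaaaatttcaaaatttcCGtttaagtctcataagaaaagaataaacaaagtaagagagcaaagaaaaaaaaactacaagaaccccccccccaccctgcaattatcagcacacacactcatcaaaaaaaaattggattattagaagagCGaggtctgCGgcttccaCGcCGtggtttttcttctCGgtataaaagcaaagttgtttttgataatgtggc

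Of the 6 Treg methylation loci, 4 were higher as sums, 1 was lower and Foxp3 did not pass the test. This list, like the others, was chosen with earlier results of these data known. The Foxp3 sum held only the 3′ region, because the 2 regions at its 5′ end, both higher, are assigned to Flicr. Il2ra, the IL-2 receptor alpha chain, had 1164 and 1121 CPM in RA+VitC iTreg and 325 and 323 CPM in Treg. It was 3.53-fold higher (log2 1.82, SE 0.05, edgeR adjusted p = 1.7e-67), with 6 of 7 tested regions higher. The broad region over its body (chr2:11568438-11596474) had 682 and 657 CPM against 134 and 141 CPM. At the small region over its start (chr2:11563877-11567653), by contrast, TGFβ iTreg had 68.5 and 79.8 CPM, far above RA+VitC iTreg at 12.6 and 10.8 CPM and Treg at 3.71 and 2.01 CPM.

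Ctla4, the inhibitory receptor for CD80 and CD86, had 981 and 933 CPM against 382 and 371 CPM (2.54-fold), and 10 of its 11 tested regions were higher. The region covering the gene (chr1:60948242-60980683) had 442 and 419 CPM against 118 and 114 CPM. Tnfrsf18, the GITR costimulatory receptor, was higher at both regions, 59.8 and 55.9 against 33.9 and 43.2 CPM upstream of its start and 59.8 and 63.1 against 27.9 and 26.6 CPM over the gene.

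Ikzf2, the gene of the transcription factor Helios, was lower as a sum, with 992 and 936 CPM against 1381 and 1391 CPM (log2 -0.52, SE 0.04). Its 52 tested regions went both ways, 19 lower and 10 higher. The broad region from 83779 bp downstream of the start (chr1:69624171-69648754) had 64.5 and 61.6 CPM against 240 and 237 CPM, a log2 difference of -1.92. The 2 widest regions, one beyond it and one nearer the start, did not pass the test (log2 -0.06 and 0.08). The body regions between these 2, from 46.6 to 108 kb, were all lower (log2 -1.32 to -1.92). At 1853 bp from the start (chr1:69721864-69730680) the order turned, with 76.8 and 63.7 CPM in RA+VitC iTreg and 17.4 and 17.6 CPM in Treg. Upstream of the start, most tested regions from -7.06 to -71.4 kb were lower again, the called ones by log2 -0.94 to -2.91. Far downstream, from 156 to 363 kb, lay most of the higher Ikzf2 regions and some lower ones (called log2 -1.20 to 1.90). Ikzf4, the gene of Eos, was also split: its start region (chr10:128074640-128082643) had 120 and 117 CPM against 56.7 and 58.8 CPM, while its other region, nearest to the start of the neighbouring Rps26, was lower, 28.1 and 30.2 against 51.1 and 49.6 CPM.

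**Figure D4:**
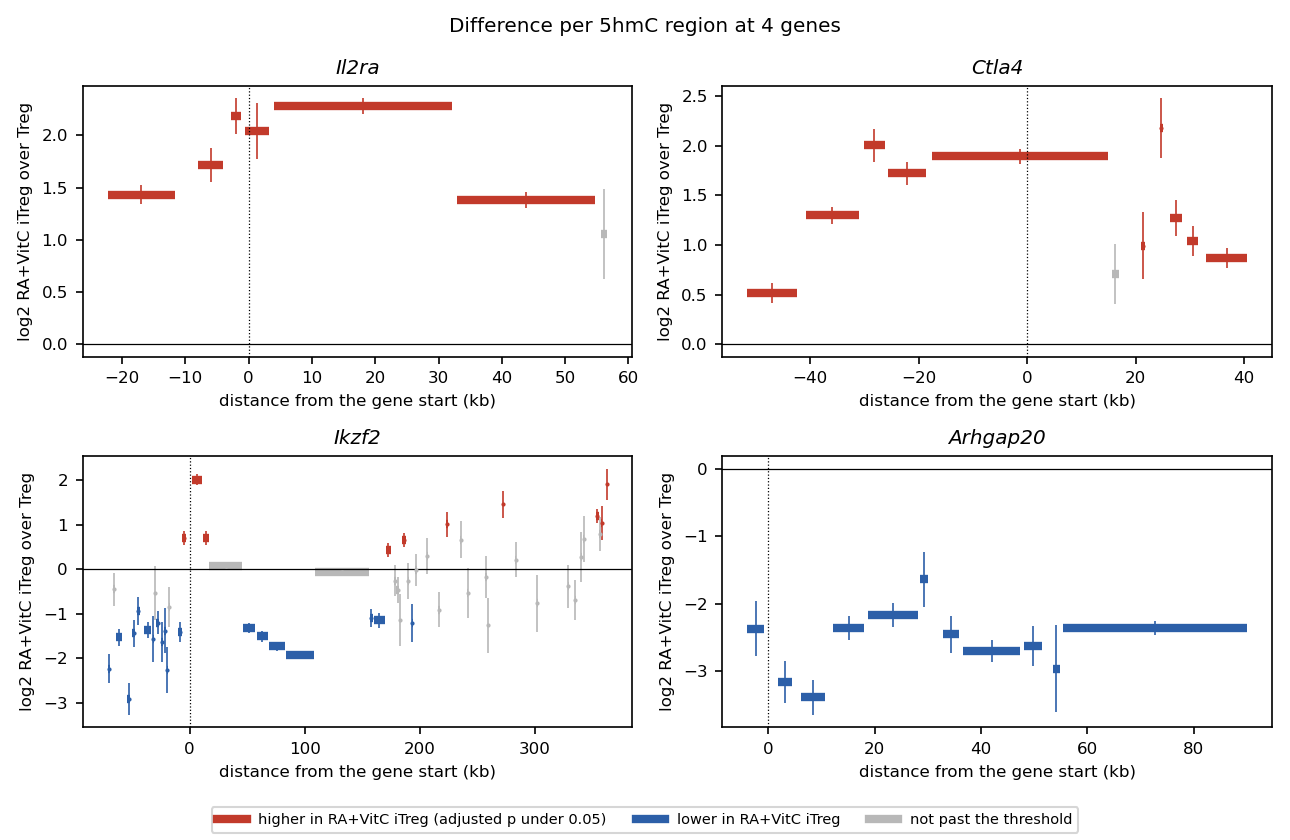
Log2 difference of RA+VitC iTreg over Treg for each tested 5hmC region assigned to Il2ra, Ctla4, Ikzf2 and Arhgap20, against distance from the gene start in kb along the direction of transcription. Horizontal bars span the region, vertical bars are 1 SE, and colour marks the call. Il2ra and Ctla4 are higher at all but 1 region each, and Arhgap20 is lower at all 11. Ikzf2 is higher near its start and not called at its 2 widest regions. It is lower over the body from 46.6 to 108 kb (down to log2 -1.92) and at most regions from -7.06 to -71.4 kb. Far downstream, from 156 to 363 kb, called Ikzf2 regions go both ways (log2 -1.20 to 1.90).

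For the lists that follow, 26.6% of all genes were higher and 23.1% lower. Treg receptors and suppressor molecules were higher in 20 and lower in 8 of 31 tested genes (median log2 0.53, against -0.02 over all genes; 19 and 9 with library size scaling). Socs2, a feedback inhibitor of cytokine signalling, had the largest difference, with 470 and 408 CPM against 69.2 and 70.7 CPM (6.27-fold, log2 2.65, SE 0.07). The region over its start (chr10:94856328-94877201) had 374 and 322 CPM in RA+VitC iTreg, 41.3 and 41 CPM in Treg and 11.4 and 11.1 CPM in naive cells. Lrrc32, the GARP receptor that docks latent TGFβ, had 565 and 517 CPM against 200 and 196 CPM. Gzmb (2.32-fold), the CD73 gene Nt5e (2.04-fold), Rgs1 (1.97-fold), the folate receptor gene Izumo1r (1.93-fold), Nrp1 (1.79-fold) and Icos (1.72-fold) were also higher.

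Beside Klrg1 and Itgb8, the lower members included the 4-1BB receptor gene Tnfrsf9 (log2 -0.63), Swap70 (-0.70), Cd83 (-0.53) and Lag3 (-0.26). Lad1 and Areg passed the test at under 5 CPM in each library. Both Il10 libraries of RA+VitC iTreg, 94.7 and 117 CPM, lay above Treg at 77.9 and 83.4 CPM (log2 0.39).

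Of 16 Treg transcription factor genes 7 were higher and 4 lower, with a median of 0.03, beside 26.6% and 23.1% of all genes, and with library size scaling 6 were higher and 8 lower. Bach2, a repressor that restrains effector genes, had 4308 and 4124 CPM against 2700 and 2717 CPM, and it was higher than in naive cells (3040 and 3022 CPM) and TGFβ iTreg (2483 and 2825 CPM) in both libraries. Of its 39 tested regions 15 were higher than in Treg and 8 lower. Runx1, a partner of Foxp3, was 1.52-fold higher, with 45 of 101 tested regions higher and 2 lower. Nfatc2 (2-fold) and Irf4 (1.92-fold) were higher. Satb1, a chromatin organiser of developing T cells, was lower (1304 and 1369 against 2020 and 2084 CPM), with 50 of 110 tested regions lower, and Gata3 was lower at 14 of 28 regions (log2 -0.47).

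The IL-2 and STAT5 list was higher in 10 and lower in 2 of 14 genes, with a median of 0.74 (9 and 3 with library size scaling). Cish, a STAT5 target that dampens cytokine signalling, had 392 and 369 CPM in RA+VitC iTreg, 117 and 120 CPM in Treg and a mean of 52.7 CPM in naive cells. Pim1 (2.28-fold), the receptor beta chain Il2rb (294 and 276 against 172 and 173 CPM), Bcl2 (1448 and 1355 against 855 and 803 CPM) and Il2 itself (80.1 and 95 against 55.7 and 44.2 CPM) were higher. Socs1 was 2.97-fold higher over its assigned regions but had a log2 difference of -2.42, not past the test (edgeR adjusted p = 0.0901), when only regions overlapping the transcript were summed. Jak3 (log2 -0.41) and Stat5a (-0.16) were lower, and Stat5b did not pass the test (0.04).

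Activation genes were higher in 19 and lower in 9 of 31 (median 0.36; 16 and 11 with library size scaling). The transferrin receptor Tfrc (2.53-fold), Tnf (2.3-fold), Irf8 (2.15-fold), Batf3 (2.12-fold), Bhlhe40 (1.98-fold) and Nfkb1 (1201 and 1213 against 831 and 821 CPM) were higher. Among early response genes of receptor signalling Nr4a1 (116 and 119 against 198 and 194 CPM), Egr1 (66.4 and 81.5 against 123 and 125 CPM), Egr3 (log2 -0.45) and Nr4a3 (-0.33) were lower, as was the NF-κB subunit gene Rel (-0.57). Egr2 was higher over all assigned regions (0.36) and lower (-0.41) over those overlapping the transcript.

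Of 25 cell cycle genes 19 were higher and 1, Ccnd2, was lower, with a median of 0.61 (15 and 3 with library size scaling). Ccna2 had 24.2 and 19.8 CPM against 8.62 and 5.68 CPM, Cdk1 65.8 and 68.9 against 26.8 and 29.4 CPM, Mki67 173 and 155 against 79 and 84.9 CPM, and the topoisomerase Top2a 224 and 215 against 113 and 120 CPM. Glycolysis genes were higher in 7 and lower in 3 of 16 (median 0.25; 5 and 4 with library size scaling). The hexokinase Hk2, which phosphorylates glucose, had 307 and 305 CPM against 82.1 and 81.2 CPM (3.74-fold). Pfkp was 2.26-fold and the glucose transporter Slc2a1 1.79-fold higher. Lower were Pfkfb3 (log2 -0.52) and the lactate transporters Slc16a3 (-0.56) and Slc16a1 (-0.44).

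Genes of naive T cells were higher in 14 and lower in 3 of 21 (median 0.28; 10 and 7 with library size scaling). Treml2 was 3.25-fold higher, with 230 and 200 CPM in RA+VitC iTreg, 69.2 and 63.2 CPM in Treg and a mean of 87.2 CPM in naive cells. Foxp1, a quiescence factor, had 5293 and 5010 CPM against 2947 and 2930 CPM, and 3405 and 3488 CPM in naive cells. The lymph node homing receptor gene Ccr7 was 1.55-fold higher, and Satb1, Myb (log2 -0.74) and Nsg2 (-0.41) were lower. Lef1 did not pass the test (0.06).

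**Figure D5:**
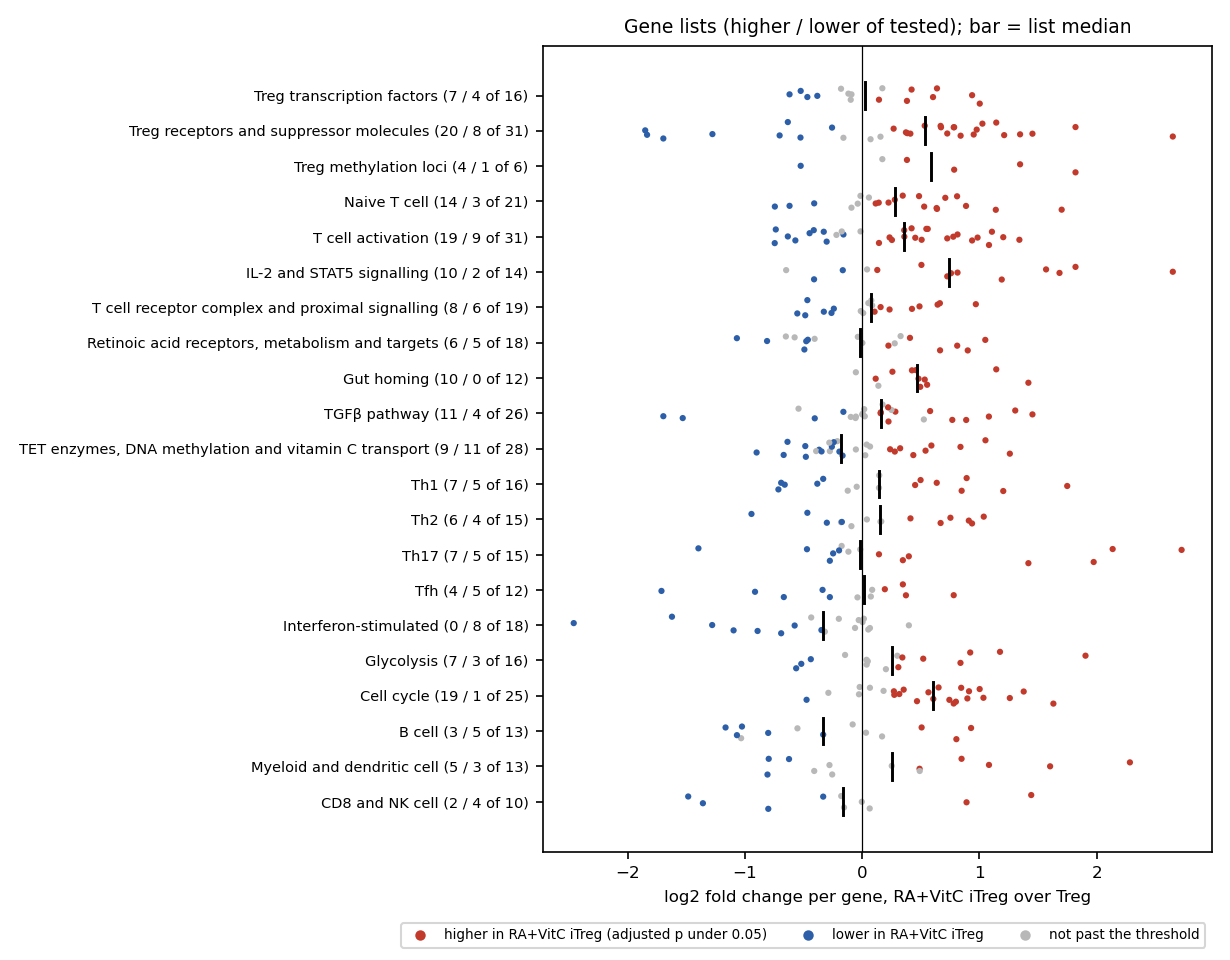
Log2 difference of RA+VitC iTreg over Treg for the tested members of 21 gene lists, with 1 point per gene coloured by call, the list median as a black bar and the counts higher and lower beside each name. IL-2 and STAT5 signalling and cell cycle have the highest medians (0.74 and 0.61), and the interferon-stimulated and B cell lists the lowest (-0.33 each).

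Of the genes tied to retinoic acid, 6 were higher and 5 lower of 18, with a median of -0.02 (5 and 9 with library size scaling). These shares lie near the 26.6% and 23.1% of all genes, so the members are given as single values. The transglutaminase Tgm2, a classical retinoic acid target, had 190 and 172 CPM against 98.4 and 95.6 CPM. The nuclear receptor corepressor Nrip1 had 2271 and 2106 CPM against 1239 and 1257 CPM, above TGFβ iTreg (961 and 918 CPM) and naive cells (1056 and 1081 CPM), although 14 of its 49 tested regions were lower and 8 higher. The retinoic acid degrading enzyme Cyp26b1 had 11.9 and 7.79 CPM against 4.98 and 4.57 CPM, and the retinol transporter Stra6 52.7 and 56.7 against 37.8 and 31.3 CPM. Among the receptors Rarg was lower (88 and 73.7 against 139 and 145 CPM), Rara did not pass the test (log2 -0.04), and the synthesising enzyme Aldh1a2 was lower (8.74 and 5.99 against 14.7 and 16.3 CPM).

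The gut homing list, several of whose members retinoic acid is known to induce in T cells, was higher in 10 of 12 (median 0.47; 8 with library size scaling). Its members are not all specific to gut homing: Gpr83 is also in the Treg receptor list and S1pr1 in the naive T cell list. No member was lower by edgeR or DESeq2, nor at an unadjusted p under 0.05. Ccr6 had 285 and 279 CPM against 111 and 101 CPM, Gpr83 276 and 257 against 117 and 125 CPM, the gut chemokine receptor Ccr9 309 and 301 against 209 and 206 CPM, and the integrin chain Itga4 512 and 494 against 362 and 351 CPM. At Ccr9 and Itga4 the RA+VitC iTreg libraries were also above those of TGFβ iTreg, whose means were 214 and 358 CPM. At Gpr15 the order was the opposite, with 125 and 179 CPM in TGFβ iTreg and 61.2 and 69.8 CPM in RA+VitC iTreg. Gpr15 and Itgb1 were higher by 0.46 and 0.48 over all assigned regions, and had values of -0.69 and -0.14, not past the test, over those overlapping the transcript.

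TGFβ pathway genes were higher in 11 and lower in 4 of 26 (median 0.16), beside 26.6% and 23.1% of all genes. With library size scaling 7 were higher and 10 lower, beside 2953 and 5339 of all 14951 genes. The feedback inhibitors Pmepa1 (697 and 628 against 265 and 271 CPM) and Skil (697 and 667 against 387 and 413 CPM) were higher, as were the processing protease Furin (2.12-fold) and the integrin chain Itgav (1.85-fold). In TGFβ iTreg Pmepa1 and Skil had means of 255 and 395 CPM, near Treg. Ltbp1, which binds latent TGFβ to the matrix (log2 -1.53), its activator Itgb8, the shared signal transducer Smad4 (-0.40) and Tgfb1 itself (-0.16) were lower.

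The TET, DNA methylation and vitamin C transport list was higher in 9 and lower in 11 of 28 (median -0.18; 7 and 16 with library size scaling). The excess of losses did not hold by DESeq2 (8 higher, 6 lower) or with inputs in the fit (6 higher, 4 lower). Tet2 was lower (190 and 203 against 254 and 253 CPM; log2 -0.37, SE 0.06), Tet3 higher (0.28), and Tet1 did not pass the test (-0.05). The maintenance methyltransferase Dnmt1 (1.51-fold), Dnmt3b (1.45-fold) and the cofactor Dnmt3l (73.1 and 64.4 against 31 and 26.7 CPM) were higher. Dnmt3a had a log2 difference of -0.19, past the test, and one of 0.013 when inputs entered the fit. The vitamin C transporter genes Slc23a1 (-0.64) and Slc23a2 (-0.17) were lower.

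Lists of the other helper fates were mixed. Th17 genes were higher in 7 and lower in 5 of 15, beside 26.6% and 23.1% of all genes (6 and 8 with library size scaling), with the chemokine Ccl20 at 17.5 and 24.6 CPM against 3.5 and 2.84 CPM and Il17f at 9.32 and 14.7 against 2.96 and 2.47 CPM. Il17a was higher as well, at low levels of 3.2 and 3 CPM against 0.269 and 1.23 CPM, while TGFβ iTreg had a mean of 27.9 CPM. Il22 (log2 -1.40) and the aryl hydrocarbon receptor gene Ahr (-0.47) were lower.

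Th1 genes were higher in 7 and lower in 5 of 16 (7 and 6 with library size scaling). Lymphotoxin alpha, Lta, was 3.36-fold and Runx3 1.85-fold higher, Il12rb2 (log2 -0.71) and Tbx21 (-0.38) were lower, and Ifng did not pass the test (-0.05). Th2 genes were higher in 6 and lower in 4 of 15, with Il4ra 1.88-fold higher and Il13 lower (-0.94), and 4 and 5 with library size scaling. Tfh genes were higher in 4 and lower in 5 of 12, with Ascl2, a factor of follicular helper cells, at 2.62 and 2.7 against 9.02 and 8.51 CPM (3 and 6 with library size scaling).

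Interferon-stimulated genes were lower in 8 of 18 and higher in none by edgeR or DESeq2, with 9 lower and 0 higher at an unadjusted p under 0.05 (median -0.33; 10 lower with library size scaling). Over regions on the transcript alone 1 of 17 was higher and 8 lower. Isg15 had 7.28 and 8.39 CPM in RA+VitC iTreg, 23.8 and 24.4 CPM in Treg and a mean of 32.1 CPM in naive cells. Irf9, the DNA-binding subunit of the interferon-activated STAT complex, had 30 and 27.3 CPM against 60.9 and 61.7 CPM, and Xaf1 18.9 and 21.3 against 46.4 and 51 CPM. Both iTreg groups were low at these 3 genes, where TGFβ iTreg had means of 9.44, 29.2 and 30.6 CPM. Mx1 was lower as well, with both RA+VitC iTreg libraries under the level of 3 reads (0.751 and 0.784 CPM).

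Pull-down reads fell on marker genes of other cell types in both groups. The B cell list was higher in 3 and lower in 5 of 13 tested genes, beside 26.6% and 23.1% of all genes, with a summed level of 276 to 295 CPM in RA+VitC iTreg and 292 to 295 CPM in Treg. With inputs in the edgeR fit the 3 gains, Bank1, Cd79b and Pax5, were not called (adjusted p 0.103, 0.255 and 0.598) and 3 genes were lower. The myeloid and dendritic list was higher in 5 and lower in 3 of 13, with sums of 375 to 412 CPM and 406 to 411 CPM. With inputs in the fit it was higher in 3 and lower in 3 of 11, and its median moved from 0.25 to -0.61. The CD8 and NK list was higher in 2 and lower in 4 of 10, with sums of 514 to 524 CPM and 716 to 718 CPM. With inputs in the fit 1 was higher and 4 lower. Its gains were Klrk1 (10.8 and 13.5 against 4.98 and 3.95 CPM) and Klrd1 (9.32 and 10.8 against 5.52 and 5.31 CPM). Its largest losses were Cd8b1 (46.6 and 50.1 against 139 and 131 CPM) and Cd8a (32.3 and 33.3 against 84 and 84.1 CPM). Naive cells, sorted as CD4+, had means of 156 and 91.4 CPM at these CD8 genes. The macrophage gene Lyz2 stood at 0.599 to 0.874 CPM in RA+VitC iTreg and at 0.673 to 1.11 CPM in Treg, near the level of 3 reads. The macrophage marker gene Adgre1, at 54.5 and 49.8 against 11.4 and 9.99 CPM, was the myeloid member with the largest gain. The myeloid members Flt3, Itgam and Itgax were lower (log2 -0.81, -0.62 and -0.80). None of the tested markers was at 0 in a group, and their part in the results was not tested.

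Beside the regions of the named genes, the largest regional gains at 100 reads or more on average included 2 intergenic ones. They lay nearest to Zfp213 (chr17:23658163-23665915, 87.9 and 67.6 against 3.19 and 3.19 CPM), a zinc finger gene, and Fam49a (chr12:12552621-12557926, 64.8 and 60.7 against 3.45 and 1.89 CPM), whose start is 283675 bp away. At both, TGFβ iTreg was also high, at 44.7 to 84.8 CPM. The regions of Rph3a, Pou5f1-rs4 and Pitx1 among the largest gains were intergenic as well. At regions of Tgs1, an RNA cap methyltransferase gene (chr4:3527737-3530632, 66.5 and 62.8 against 4.6 and 2.83 CPM), and of the ubiquitin ligase gene Trim9 (chr12:71407369-71411290, 65 and 57.1 against 3.58 and 3.43 CPM), TGFβ iTreg stood lower, at 13 to 23.9 CPM. Among losses, the region nearest to Atxn1 (chr13:46113752-46119171) had 3.81 and 6.58 CPM against 27.3 and 27.5 CPM, and an exonic region of the integrin gene Itga9 (chr9:118691906-118698896) had 7.03 and 8.67 against 34.8 and 37.1 CPM.

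At promoters, 17.6% of the 18082 tested promoter and 5′ UTR regions were higher and 11% lower. Among those with at least 100 reads on average the 4 largest gains were at Syndig1l, Smc4, Slco4a1 and Tnfrsf13b. The Syndig1l region (chr12:86021121-86023503) lies on an annotated 5′ UTR, not a promoter, 16253 bp from the nearest start. It had 66.2 and 49 CPM against 1.41 and 1.89 CPM, the largest gain of any region with at least 100 reads on average (log2 5.10, SE 0.20). The region over the start of the organic anion transporter gene Slco4a1 (chr2:180191951-180199194) had 73.2 and 83.4 CPM against 7.03 and 5.08 CPM. The region upstream of Tnfrsf13b, the TACI receptor gene (chr11:60932639-60937933), had 53.9 and 46.3 CPM against 4.22 and 3.66 CPM.

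The Smc4 region (chr3:68811408-68814020) covers the start of Mir15b, which lies inside Smc4. It had 70.6 and 71.1 CPM in RA+VitC iTreg, 3.45 and 5.32 CPM in Treg, 43.5 and 66.4 CPM in TGFβ iTreg and 24.7 and 25.4 CPM in naive cells (log2 4.00, SE 0.16), so that Treg was the lowest group. The miRNAs encoded there are shown because they share their seed, bases 2 to 8, given in capitals (RefSeq, GRCm38.p6, plus strand, chr3:69009775-69009796 and chr3:69009918-69009939). miRNAs with one seed pair with largely the same targets.
miR-15b-5p: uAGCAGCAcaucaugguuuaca
miR-16-5p: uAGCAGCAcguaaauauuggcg

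With the same limit on reads the 4 largest promoter or 5′ UTR losses were at Arhgap20os, at Ttc28 beside Mir701, between Gtf2h4 and Vars2, and at Itga9. The region over the Arhgap20os start (chr9:51680306-51686599) had 4.69 and 9.27 CPM against 40 and 43.9 CPM (log2 -2.59, SE 0.18). The Itga9 region (chr9:118667511-118680311), on an annotated 5′ UTR 46700 bp from the nearest start, had 15.8 and 17.3 CPM against 52.7 and 50 CPM. For contrast, the 250 bases upstream of a start inside a gained region and of one inside a lost region are shown with each CG in capitals (RefSeq, GRCm38.p6; Slco4a1 at chr2:180455995-180456244, plus strand; Arhgap20os at chr9:51875886-51876135, minus strand).
Slco4a1: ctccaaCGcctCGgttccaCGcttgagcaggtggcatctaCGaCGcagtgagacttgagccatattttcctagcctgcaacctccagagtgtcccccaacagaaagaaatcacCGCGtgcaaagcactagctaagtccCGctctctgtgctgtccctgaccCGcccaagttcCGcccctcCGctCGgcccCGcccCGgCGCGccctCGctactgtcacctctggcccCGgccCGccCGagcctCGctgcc
Arhgap20os: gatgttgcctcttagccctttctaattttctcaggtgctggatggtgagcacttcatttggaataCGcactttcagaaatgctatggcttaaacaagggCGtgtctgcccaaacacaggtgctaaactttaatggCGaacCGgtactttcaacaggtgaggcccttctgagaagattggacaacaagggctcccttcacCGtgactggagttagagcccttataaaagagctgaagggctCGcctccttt
Slco4a1 holds 21 CG in this window and Arhgap20os 6, more than 83.9% and 49.5% of 27025 RefSeq mouse promoters. The motif CG, the same on both strands, is present in 91.7% of those windows, with a median of 6. Over the genes whose start lies in a tested region the median was 7 for 593 genes with a higher region, 9.5 for 404 with a lower region and 11 for 1510 with an uncalled region. These counts describe the upstream sequence and were not tested.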

How the data were processed

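5hmC was mapped by CMS-IP: per the labels' protocols, genomic DNA was sheared, bisulfite turned 5hmC into cytosine-5-methylenesulfonate, and anti-CMS serum pulled it down, with 1% of the DNA kept as input. The authors deposited raw read counts per region on mm9, over a union of broad MACS2 peaks (q 0.01), per the file headers and name. Tools named in the submitters' processing notes are MACS2 2.1.0.20151222, SAMtools 1.7, Trim Galore 0.4.2 and bcl2fastq 2.20.0.442 (aligner and counter: not given in the sources used here).

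The 8 pull-downs were fitted by group with edgeR 4.0.16 (R 4.3.3; filterByExpr with a minimum count of 10, TMM, quasi-likelihood F test, 4 residual degrees of freedom, Benjamini-Hochberg). The region fit's contrast was RA+VitC iTreg minus Treg. Counts were also summed per gene symbol, leaving out 14577 regions without one. Fold changes are fitted values and SE is the log2 difference over the square root of F. In a simulation with 1 fixed spread, known changes were set at a few features with at least 20 reads on average. Among 120234 tested regions the test recovered 16.2% of 68 changes of log2 0.5. It recovered 50% of 66 of log2 1 and 90.9% of 66 of log2 2. Among 14651 genes the shares were 48.5%, 87.9% and 100%. The simulated spread was above that fitted to genes, whose common coefficient of variation was 0.0275, against 0.0437 for regions. All other features were left unchanged, unlike the data, and false calls numbered 5 for regions and 6 for genes. Recovery at features with fewer reads was not tried.

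Named genes are the 12 largest and 12 smallest differences past the threshold with at least 100 reads on average and no overlap. Predicted, RIKEN and microRNA symbols were left out. Regions follow the same rule (8 and 8, and 4 and 4 on promoters or 5′ UTRs). Any list member could be named, and Flicr, Slco4a1 and Tnfrsf13b follow from the rule on regions. The groups, members and lists were chosen with earlier results of these data known. DESeq2 1.42.0 and 12 other alternatives were run. No mm9 genome was used, so sequences come from GRCm38.p6 by symbol.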

Additional observations from a re-analysis of the deposited data

How the results depend on the processing

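Regions higher numbered 15276 by DESeq2, 7844 where the mean was 50 reads or more and 6042 with inputs in the fit, and regions lower 4576, 7671 and 3270 under these and 28306 with library size scaling. Genes higher numbered 2146 and genes lower 1635 with inputs in the fit, and genes lower were 2183 by DESeq2 and 5339 with library size scaling. Leaving out each library gave 17523 to 19657 regions higher and 6927 to 12876 lower, and 3333 to 3665 genes higher and 2512 to 3045 lower, the fewest without RA+VitC iTreg replicate 1. With 1 library left in a group, that library was assumed to vary like the others. RLE factors, no filter, 4 libraries alone and equal depth kept all counts within 1.5 times.

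Library size scaling reversed Batf (-0.018), Cd247 (-0.056), Dapl1 (-0.020), Jak1 (-0.033), Lat (-0.0046), S1pr1 (-0.046), Ski (-0.0024) and Smad3 (-0.0043), on the log2 scale. Summing only regions over the transcript, an alternative chosen after seeing the data, reversed Batf (-0.38), Ccr3 (-0.077), Egr2 (-0.41), Gpr15 (-0.69), Itgb1 (-0.14), Socs1 (-2.42) and Stk31 (1.87), and inputs in the fit reversed Cxcr5 (-0.025), Dnmt3a (0.013) and Mbd3 (0.055). The cause was not tested. No paired analysis was possible because the replicate labels of RA+VitC iTreg and Treg share no number. The RA+VitC iTreg libraries held 3996442 and 3828487 reads, and 3 reads are 0.751 and 0.784 CPM there.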

Other observations

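Tnfrsf13b, the gene of the TACI receptor for BAFF and APRIL, was higher at 12 of its 13 tested regions. Its sum had 299 and 285 CPM in RA+VitC iTreg, 64.1 and 60.8 CPM in Treg, 164 and 175 CPM in TGFβ iTreg and 35.3 and 36.6 CPM in naive cells. The other receptors of these ligands differed less, with Tnfrsf13c, the BAFF receptor, at 32.9 and 36 against 22.8 and 24.2 CPM (edgeR adjusted p = 0.00021), and Tnfrsf17 at 14 and 13.8 against 13.2 and 12.5 CPM (edgeR adjusted p = 0.64). Tnfrsf13c and Tnfrsf17 were chosen after their values were seen.

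The gain at H19 was not shared by the other imprinted genes looked at, which were chosen after seeing the data. Dlk1 had 29.7 and 40.5 CPM in RA+VitC iTreg and 34.9 and 32.3 CPM in Treg, and Meg3 6.41 and 5.99 against 7.67 and 7.65 CPM; neither passed the test. Cdkn1c (5.54 and 5.4 against 8.35 and 12.5 CPM) and Igf2r (381 and 341 against 400 and 407 CPM) were lower by edgeR (log2 -0.94 and -0.16). In the SOCS family, the members outside the IL-2 list did not follow Socs2: Socs5 was lower (136 and 142 against 174 and 170 CPM), and Socs4, Socs6 and Socs7 did not pass the test (log2 -0.17, -0.21 and -0.16).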
